A study of Saccharomyces cerevisiae with 12 samples.

Results

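The subject is 10 transcription factors of the yeast stress responses, *MSN2*, *MSN4*, *XBP1*, *ROX1*, *CIN5*, *YAP1*, *YAP6*, *HSF1*, *SKN7* and *HOT1*, read as transcript levels in strains that lack the DNA repair proteins Rad4, Rad23 or both. The 10 genes were chosen by name with their values in these strains already known, so their levels are described here. Test outcomes given for them below are part of that description, and nothing is concluded from them about the 10 as a group. The array annotation gave each gene 1 probe set, so the members are 10 of the 5656 genes with a probe set of their own and 10 of the 9275 probe sets tested, all 10 were measured and none was removed by a filter. Total RNA came from untreated *Saccharomyces cerevisiae* cultures in log phase, collected at an optical density of 0.5 to 0.6, on 3 Affymetrix yeast S98 arrays per strain, each from its own biological repeat.

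The *rad4Δrad23Δ* double mutant was made from BY4742 *rad23Δ* by exchanging *RAD4* for a fragment that carries the marker *HIS3*. The *rad23Δ* and *rad4Δ* single deletion strains and the wildtype parent BY4742, a MATalpha haploid, were Euroscarf strains. All 4 strains share the BY4742 background, no strain was irradiated or otherwise treated, and each mutant is a single constructed strain. Rad4 and Rad23 form the complex that recognises damaged DNA in nucleotide excision repair. Rad23 also carries ubiquitinated proteins to the proteasome.

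As background, budding yeast meets heat, oxidants, high salt, low oxygen and starvation with a small set of DNA-binding proteins. Msn2 and Msn4 are related zinc-finger activators that protein kinase A keeps out of the nucleus in growing cells and that switch on general stress genes. Hsf1 drives chaperone genes, Yap1 and Skn7 the oxidative stress genes, and Hot1 the glycerol genes of the osmotic response. Cin5 and Yap6 are further proteins of the Yap family, best known from salt stress. Xbp1 and Rox1 are repressors, Xbp1 appearing in stressed or starved cells and Rox1 holding down hypoxic genes in the presence of oxygen. Several of these proteins are set mainly by where they sit in the cell or by modification, and an array reads only their transcripts.

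Values are robust multichip average (RMA) values on a log2 scale, on which 1 unit is a 2-fold difference. Medians of the 12 arrays were 5.83 to 5.90, and the brightness of one probe set is not set against that of another. The *RAD4* probe set checked the labels. It was at 2.99, 2.70 and 2.84 in *rad4Δrad23Δ*, at 5.44, 5.12 and 5.14 in *rad23Δ*, at 3.49, 5.47 and 3.01 on the arrays labelled *rad4Δ* and at 5.11, 5.12 and 3.42 on those labelled wildtype. The arrays labelled *rad4Δ* replicate 2 and wildtype replicate 3 therefore went against their labels. Whether these 2 arrays were exchanged was not tested, and no difference or test is given with their labels exchanged. Results below are from the arrays as labelled unless said otherwise. Some, but not all, of those that rest on these 2 arrays are also given without them. *RAD23* was low on the arrays of both strains that lack it, at 3.66 to 4.88, against 9.32 to 9.82 elsewhere. The MATalpha markers *STE3* and *SAG1* were at 9.20 to 11.06 on all arrays, and the 6 MATa markers at 2.99 to 6.35. RNA came from whole cultures, so fewer cells with a transcript and less transcript per cell cannot be told apart. Arrays were brought to one scale, so a change in the total amount of RNA would not show.

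Among the repressors, *XBP1* stood apart in the double mutant. Xbp1 has a DNA-binding domain like those of the cell cycle factors Swi4 and Mbp1. *XBP1* was at 4.46, 4.67 and 4.77 in *rad4Δrad23Δ*, at 4.10, 4.09 and 3.77 in *rad23Δ*, at 3.97, 4.14 and 3.95 in *rad4Δ* and at 3.95, 3.97 and 3.75 in wildtype. All 3 double mutant arrays were above the other 9, the lowest of them at 4.46 and the highest of the others at 4.14. The double mutant exceeded wildtype by 0.74 ± 0.12 (log2 difference ± SE, n = 3 each), or 1.67-fold. It exceeded *rad23Δ* by 0.65 ± 0.12 and *rad4Δ* by 0.61 ± 0.12. The 3 other strains overlapped, *rad4Δ* lying 0.13 and *rad23Δ* 0.10 above wildtype, each with an SE of 0.12. Without the 2 arrays in doubt the double mutant was 0.67 above wildtype and 0.67 above *rad4Δ*, and *rad4Δ* and wildtype had the same mean, 3.96. *XBP1* is a dim probe set, near the lower quartile of the arrays (3.84 to 4.08), and whether its signal in the lower strains is above background was not tested.

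*ROX1* had the opposite arrangement by the labels, with wildtype apart from all mutants. It was at 5.01, 4.80 and 4.95 in *rad4Δrad23Δ*, at 4.72, 4.81 and 4.56 in *rad23Δ*, at 4.87, 4.55 and 4.55 in *rad4Δ* and at 5.30, 5.12 and 5.28 in wildtype. The lowest array labelled wildtype, 5.12, was above the highest array labelled as a mutant, 5.01. This arrangement rests on the labels of the 2 arrays in doubt, wildtype replicate 3 at 5.28 and *rad4Δ* replicate 2 at 4.55. With those 2 labels exchanged, wildtype would hold the array at 4.55 and would not lie apart from the mutants. Against wildtype, the difference was -0.31 ± 0.12 in *rad4Δrad23Δ*, -0.54 ± 0.12 in *rad23Δ* and -0.58 ± 0.12 in *rad4Δ* (log2, SE, n = 3 each), comparisons that share the wildtype arrays. The gap to wildtype was thus smaller in the double mutant than in either single mutant, although the arrays of the 3 mutants overlapped. The double mutant lay 0.22 ± 0.12 above *rad23Δ* and 0.26 ± 0.12 above *rad4Δ*. The differences from wildtype were -0.29 in *rad4Δrad23Δ*, -0.51 in *rad23Δ* and -0.50 in *rad4Δ* when the 2 arrays in doubt were left out. *ROX1* is also rather dim, with a mean of 4.88 over the 12 arrays, and its signal over background was not tested.

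In the Yap family of basic leucine zipper proteins, *CIN5* (also called *YAP4*) showed the widest span of strain means of the 10 genes, 0.88. It was at 7.00, 6.85 and 6.85 in *rad4Δrad23Δ*, at 6.39, 5.87 and 5.80 in *rad23Δ*, at 6.47, 6.16 and 6.05 in *rad4Δ* and at 6.14, 6.25 and 6.43 in wildtype. The double mutant arrays lay above all 9 others, of which the highest was 6.47. Replicates were closer in the double mutant, with an SD of 0.09, than in *rad23Δ*, with an SD of 0.32. The double mutant exceeded wildtype by 0.63 ± 0.16, or 1.54-fold, and *rad4Δ* by 0.67 ± 0.16. Its distance from *rad23Δ* was larger, 0.88 ± 0.16 or 1.84-fold, with *rad23Δ* having the lowest mean, -0.25 ± 0.16 from wildtype. *rad4Δ* differed from wildtype by -0.05 ± 0.16, and the arrays of the 3 strains other than the double mutant overlapped. *CIN5* in the double mutant was 0.71 above wildtype and 0.64 above *rad4Δ* when the 2 arrays in doubt were left out.

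*YAP1*, the regulator of the oxidative stress response, had its highest mean in the double mutant and its lowest in wildtype, with much overlap between neighbours. Its values were 6.07, 6.24 and 6.02 in *rad4Δrad23Δ*, 5.68, 6.13 and 6.31 in *rad23Δ*, 5.67, 5.87 and 6.13 in *rad4Δ* and 5.78, 5.93 and 5.60 in wildtype. The 3 double mutant arrays were above the 3 wildtype arrays, by 0.34 ± 0.17 in the mean. Without the array labelled wildtype replicate 3, the lowest of all 12, this difference was 0.26. The difference from wildtype was 0.27 ± 0.17 in *rad23Δ* and 0.12 ± 0.17 in *rad4Δ*, where arrays overlapped with wildtype. *YAP6* was among the dimmest probe sets on the array, at 2.59 to 2.93 over all arrays, where the 5th percentile was 2.85 to 3.01. At this brightness its strain means, 2.86, 2.85, 2.70 and 2.84 in *rad4Δrad23Δ*, *rad23Δ*, *rad4Δ* and wildtype, carry no order of the strains.

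*MSN2* and *MSN4* differed little between double mutant and wildtype. *MSN2* was at 7.72, 7.72 and 7.88 in *rad4Δrad23Δ*, at 7.75, 7.53 and 7.65 in *rad23Δ*, at 7.77, 7.68 and 7.52 in *rad4Δ* and at 7.83, 7.77 and 7.87 in wildtype. The double mutant differed from wildtype by -0.05 ± 0.10, *rad23Δ* by -0.18 ± 0.10 and *rad4Δ* by -0.17 ± 0.10. The *rad23Δ* arrays reached 7.75, just under the lowest wildtype array at 7.77, and the highest *rad4Δ* array equalled the lowest wildtype array. *MSN4* was at 6.37, 6.15 and 6.10 in *rad4Δrad23Δ*, at 6.19, 5.66 and 5.87 in *rad23Δ*, at 6.26, 6.06 and 5.83 in *rad4Δ* and at 6.04, 6.41 and 6.08 in wildtype. All 4 strains overlapped for *MSN4*. Its double mutant mean was 0.03 ± 0.16 from wildtype, 0.30 ± 0.16 from *rad23Δ* and 0.16 ± 0.16 from *rad4Δ*. The first of these was -0.02 without the 2 arrays in doubt, so that its sign is not settled.

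*HSF1*, an essential gene, and *SKN7* encode proteins with DNA-binding domains of the heat shock factor type, Skn7 being also a response regulator of the Sln1 phosphorelay. *HSF1* was at 7.04, 7.04 and 7.30 in *rad4Δrad23Δ*, at 7.03, 7.03 and 6.74 in *rad23Δ*, at 6.97, 7.14 and 7.16 in *rad4Δ* and at 6.96, 6.82 and 7.15 in wildtype. The double mutant arrays, 7.04 and above, only just cleared the *rad23Δ* arrays, 7.03 and below, with a mean difference of 0.19 ± 0.13. They overlapped with wildtype at a difference of 0.15 ± 0.13, or 0.24 without the 2 arrays in doubt. *SKN7* was at 6.75, 6.56 and 6.75 in *rad4Δrad23Δ*, at 7.03, 6.67 and 6.61 in *rad23Δ*, at 6.99, 6.92 and 6.03 in *rad4Δ* and at 7.09, 7.20 and 6.73 in wildtype. Its spread was the largest among the 10 genes, with an SD of 0.54 in *rad4Δ*, set by replicate 3 at 6.03. The difference from wildtype was -0.32 ± 0.23 in *rad4Δrad23Δ*, -0.24 ± 0.23 in *rad23Δ* and -0.36 ± 0.23 in *rad4Δ*, with overlapping arrays in each. These became -0.46, -0.38 and -0.64 without the 2 arrays in doubt, the wildtype mean then being 7.15 from 2 arrays. Leaving out *rad4Δ* replicate 3 alone brought the difference between *rad4Δ* and wildtype to -0.05.

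*HOT1*, whose protein is brought to glycerol genes together with the kinase Hog1, was the flattest of the 10. Its 12 values lay between 5.96 and 6.20, with means of 6.10 in *rad4Δrad23Δ*, 6.07 in *rad23Δ*, 6.11 in *rad4Δ* and 6.08 in wildtype. The 3 double mutant arrays, 6.12, 6.11 and 6.08, fell inside the wildtype range of 5.96 to 6.20. No difference between 2 strains was larger than its SE of 0.09.

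**Figure D1:**
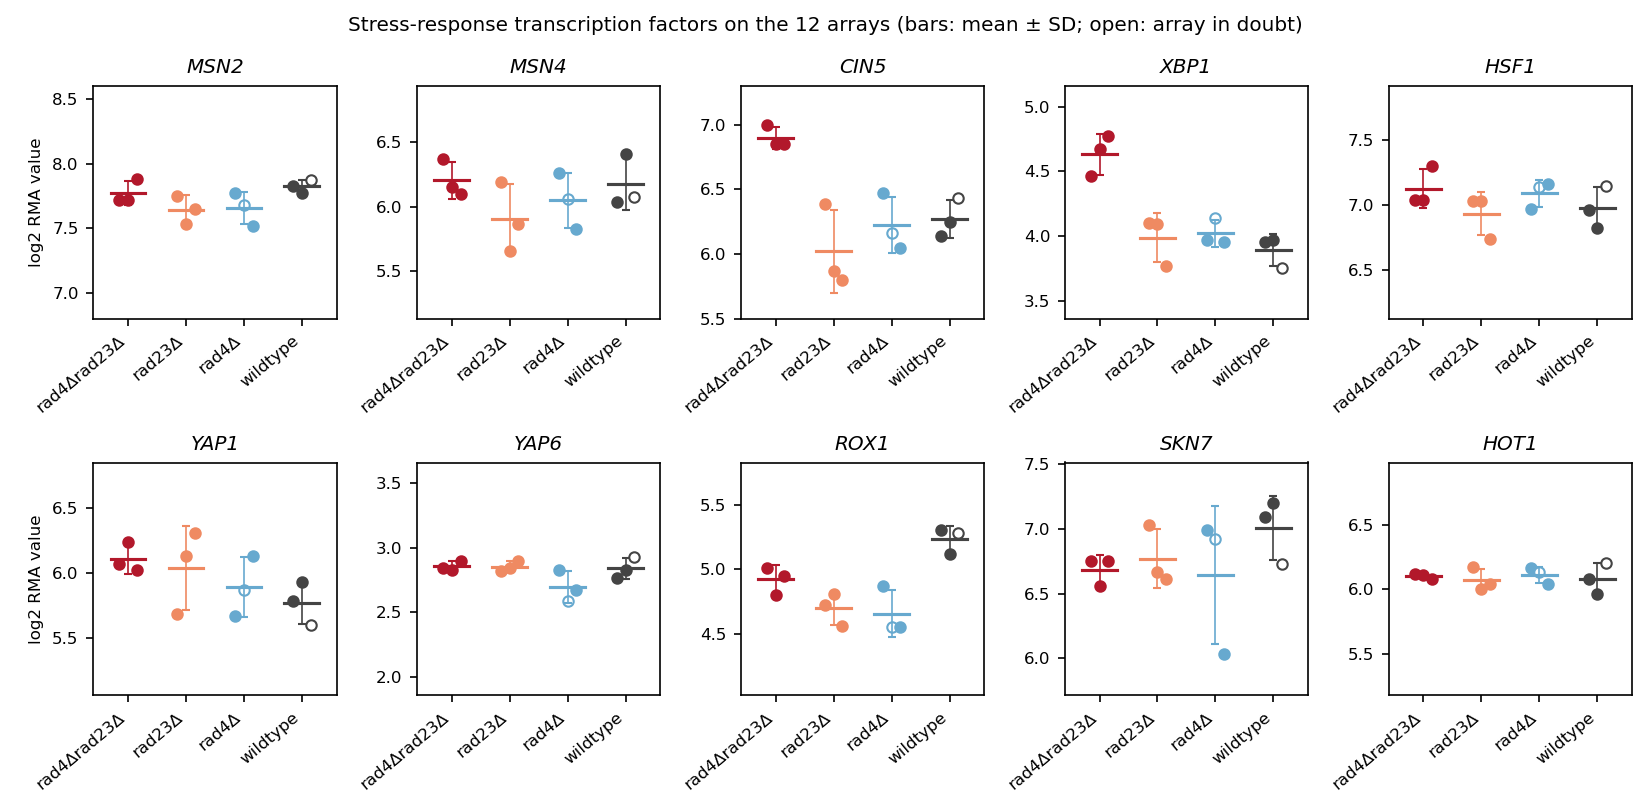
Log2 RMA values of the 10 stress-response transcription factors on the 12 arrays, 1 panel per gene with vertical axes of equal span and 1 point per array; bars are strain means ± SD (n = 3 arrays), and open points are the arrays labelled *rad4Δ* replicate 2 and wildtype replicate 3. *XBP1* and *CIN5* lie above all other arrays in *rad4Δrad23Δ*, *ROX1* lies above all other arrays on those labelled wildtype, and *HOT1* is flat.

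Counted over the 10 genes, *XBP1* was the only one that passed an adjusted p under 0.05 in the double mutant against wildtype (limma's moderated test with Benjamini-Hochberg adjustment over 9275 probe sets), where 0.647% of all probe sets passed, 0.388% as higher. *XBP1* and *CIN5* passed in the double mutant against *rad23Δ*, where 0.873% of all passed and 0.571% as higher. *XBP1* passed in the double mutant against *rad4Δ*, where 0.765% of all passed and 0.464% as higher. None of the 10 passed in *rad23Δ* against wildtype, where the share of all probe sets was 0.280%, or in *rad4Δ* against wildtype, where it was 0%. At an unadjusted p under 0.05 the limma counts of the 10 genes were 3, 1, 1, 2 and 3 for the double mutant against wildtype, *rad23Δ* against wildtype, *rad4Δ* against wildtype, and the double mutant against *rad23Δ* and against *rad4Δ*. Over all probe sets those counts were 1028, 663, 386, 953 and 1004. Since the genes were selected with these values known, nothing is read from their share beside that of all probe sets.

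These calls rest on few arrays. The call of *XBP1* in the double mutant against wildtype was lost when double mutant replicate 2 or 3 or wildtype replicate 1 or 3 was left out (17 to 35 of all probe sets then passed, against 60), and when both arrays in doubt were left out. That of *CIN5* against *rad23Δ* was held in only 1 of 6 such omissions, that of *rad23Δ* replicate 1, and those of *XBP1* against either single mutant in 0 of 6. In these omissions 7 to 45 of all probe sets passed against *rad23Δ*, where 81 did with all arrays, and 25 to 68 against *rad4Δ*, where 71 did. Arrays of the other strains enter the error of the fit: omitting wildtype replicate 1 also ended both calls against *rad23Δ*, and omitting wildtype replicate 1 or 2 or *rad23Δ* replicate 2 that of *XBP1* against *rad4Δ*. Without both arrays in doubt, 73, 61, 40, 125 and 116 probe sets passed in the 5 comparisons, and 0, 0, 0, 2 and 1 of the 10 genes.

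By whether arrays of 2 strains overlapped, *XBP1*, *CIN5* and *YAP1* were higher and *ROX1* lower in the double mutant than in wildtype on all 3 arrays, where 24.9% of all probe sets did not overlap. *MSN2* and *ROX1* were lower in *rad23Δ* than in wildtype (11.5% of all), and *ROX1* in *rad4Δ* (5.47% of all). *CIN5*, *XBP1* and *HSF1* were higher in the double mutant than in *rad23Δ* (20.4% of all), and *CIN5* and *XBP1* higher than in *rad4Δ* (17.2% of all). Double mutant arrays above all 9 others, as for *XBP1* and *CIN5*, were found for 2.79% of all probe sets. Arrays labelled wildtype lay above all 9 others, as for *ROX1*, for 0.593%. The median difference of the 10 genes in the double mutant was 0.03 from wildtype, 0.16 from *rad23Δ* and 0.16 from *rad4Δ*, beside medians of -0.02, -0.01 and -0.02 over all probe sets.

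**Figure D2:**
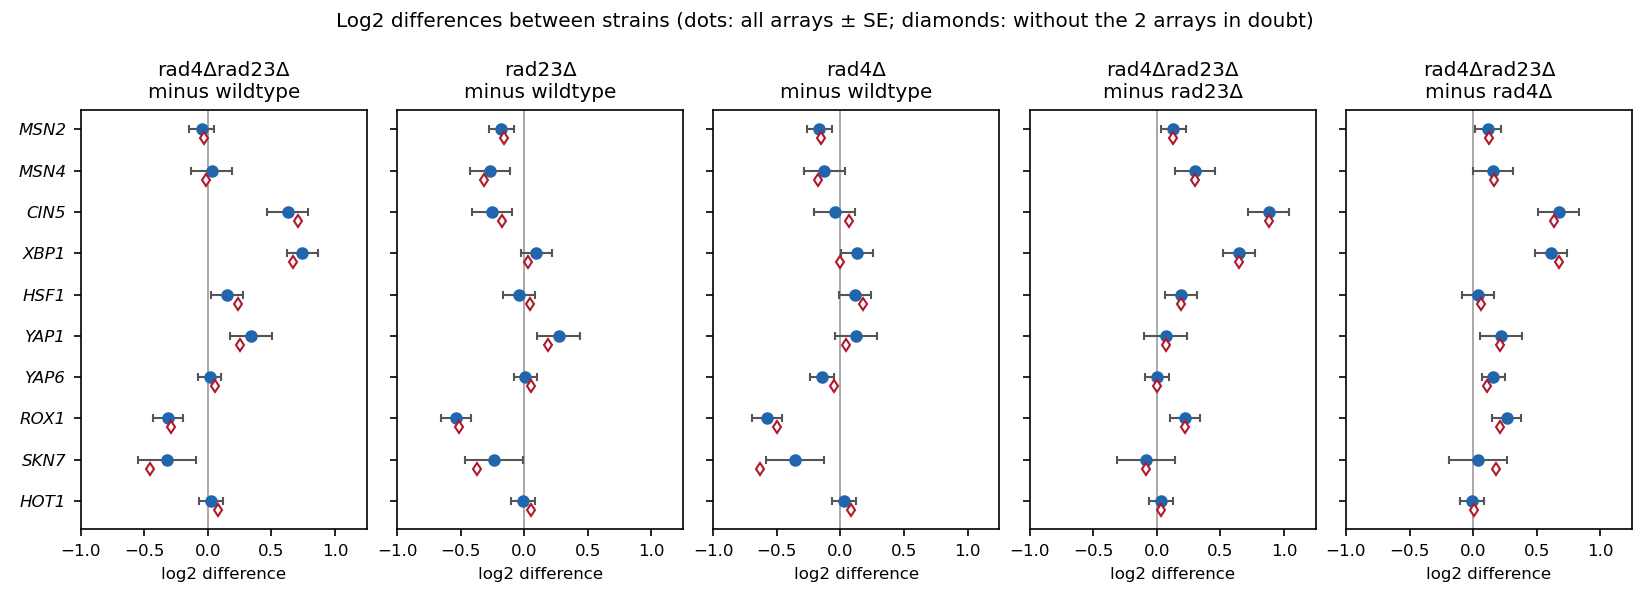
Log2 differences of the 10 genes in the 5 comparisons between strains, 1 panel each; dots are the differences from all arrays with their limma SE, and diamonds the differences without the 2 arrays in doubt. *XBP1* and *CIN5* lie at 0.61 to 0.88 in the 3 comparisons of the double mutant, *ROX1* lies at -0.58 to -0.31 in the 3 comparisons with wildtype, and the diamonds of *SKN7* move furthest.

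How far loss of *RAD4* mattered by whether *RAD23* was present was set out as a difference of differences. *CIN5* was 0.88 higher in *rad4Δrad23Δ* than in *rad23Δ*, and -0.05 apart between *rad4Δ* and wildtype, an interaction of 0.93 ± 0.23. For *ROX1* these differences were 0.22 and -0.58, an interaction of 0.80 ± 0.17. For *XBP1* they were 0.65 and 0.13, an interaction of 0.52 ± 0.18. The interaction was between -0.05 and 0.43 for the other 7 genes. Without the 2 arrays in doubt it was 0.815 for *CIN5*, 0.72 for *ROX1* and 0.65 for *XBP1*, and reached 0.55 among the others, for *SKN7*. By limma none of the 10 passed an adjusted p under 0.05 and 3 passed unadjusted, where 0.0863% of all probe sets passed adjusted and 827 unadjusted. With both arrays in doubt left out, 110 of all probe sets passed adjusted and 0 of the 10 genes. Every interaction as labelled rests on the labels of those 2 arrays.

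Over the 12 arrays, *CIN5* and *XBP1* had the highest Pearson correlation among all pairs of these genes, r = 0.76, with Spearman rho = 0.61. After the strain means were taken out, r was 0.03. *MSN4* and *CIN5*, with r = 0.67 and rho = 0.75 over all arrays, kept r = 0.73 within strains. Both *MSN4* and *CIN5* were highest on replicate 1 of *rad4Δrad23Δ*, *rad23Δ* and *rad4Δ*. These correlations are over arrays of 4 strains that share a normalization, and are given without a p. Without the 2 arrays farthest from the median of the first gene of a pair, r was 0.63 for *CIN5* and *XBP1* and 0.79 for *MSN4* and *CIN5*.

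For the 3 genes with the widest span of strain means, the 5 most similar genes were sought by Pearson r over the 12 arrays. Only probe sets with 1 gene name and a mean of at least 6 entered. Closest to *CIN5* were *HIS3* (r = 0.94), *TMA17* (0.92), *FMP16* (0.91), *UBC8* (0.90) and *PTP1* (0.90). *HIS3* codes for a histidine biosynthesis enzyme and is also the marker placed in the double mutant; it averaged 9.61 there, against 8.68 in *rad23Δ*, 8.89 in *rad4Δ* and 8.97 in wildtype. *TMA17* codes for a proteasome assembly chaperone and *UBC8* for a ubiquitin-conjugating enzyme. Closest to *XBP1* were *RPN12* (r = 0.94), *PRX1* (0.93), *FIS1* (0.91), *MDJ1* (0.89) and *OM45* (0.88). *RPN12* codes for a subunit of the proteasome's regulatory particle, and *PRX1*, *FIS1*, *MDJ1* and *OM45* code for mitochondrial proteins. Closest to *ROX1* were *YPR127W* (r = 0.90), *PET117* (0.89), *MRPL28* (0.87), *DIG1* (0.86) and *YDC1* (0.84). *PET117* averaged 7.03, 6.96 and 6.96 in *rad4Δrad23Δ*, *rad23Δ* and *rad4Δ* and 7.33 in wildtype. These lists take the highest of 3867 candidate probe sets for *CIN5* and 3868 for *XBP1* and *ROX1*, so high values of r belong to the choice.

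The other genes of these pathways were taken from 9 lists of 151 genes, 149 of them measured. In the double mutant against wildtype 7 of the 149 rose by limma and none fell, where 60 of 9275 probe sets passed. Against *rad23Δ* 8 rose and *ATR1* fell, and against *rad4Δ* 5 rose and none fell, where 81 and 71 of all probe sets passed. None of the 149 passed in *rad23Δ* or in *rad4Δ* against wildtype, where 26 and 0 of all probe sets did. Without the 2 arrays in doubt 6 and 5 passed there, beside 61 and 40 of all probe sets. The lists were chosen with earlier results of these data known, so nothing is read from these shares. Of 32 other stress transcription factors and corepressors, *ADR1* and *RPN4* rose in the double mutant against wildtype. *ADR1*, an activator of genes for growth without glucose, was at 5.65, 5.67 and 5.86 in *rad4Δrad23Δ*, at 5.42, 5.31 and 5.27 in *rad23Δ*, at 4.83, 4.87 and 4.74 in *rad4Δ* and at 5.05, 4.95 and 4.95 in wildtype. It was 0.74 ± 0.09 above wildtype (limma adjusted p = 0.00399) and 0.91 ± 0.09 above *rad4Δ* (limma adjusted p = 0.000623). Its double mutant arrays cleared all others. *RPN4*, the activator of proteasome genes, was at 8.87, 8.83 and 8.99 in *rad4Δrad23Δ*, against 8.20, 8.01 and 8.35 in wildtype (0.71 ± 0.14, limma adjusted p = 0.0413). The median of this list was -0.03 beside -0.02 for all probe sets.

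Upstream of the factors no listed gene passed. The list of protein kinase A, Rim15, Yak1 and nuclear export (20 genes) had a median of -0.04 in the double mutant against wildtype, and the high-osmolarity glycerol pathway (16 genes) one of 0.06. By limma 0 genes of either list passed an adjusted p under 0.05 in any of the 5 comparisons. At an unadjusted p under 0.05, 2 of 20 and 1 of 16 did so in the double mutant against wildtype, beside 1028 of 9275 probe sets. With both arrays in doubt left out, 1 gene of the first list passed in *rad23Δ* and 1 in *rad4Δ* against wildtype, beside 61 and 40 of all probe sets.

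Among 28 targets of Msn2 and Msn4, *ALD3* and *PNC1* rose in the double mutant against wildtype. Of the 28 differences 22 were positive, with a median of 0.30 beside -0.02 over all probe sets. The median from *rad23Δ* was 0.43 and from *rad4Δ* 0.40, while *rad23Δ* and *rad4Δ* were at -0.15 and -0.12 from wildtype. The study itself drew attention to genes with stress response elements, *DDR2* among them, on these arrays, so the list is not independent evidence of a direction. *ALD3*, an aldehyde dehydrogenase gene, was at 4.67, 4.77 and 4.74 in *rad4Δrad23Δ*, at 3.90, 3.92 and 3.92 in *rad23Δ*, at 3.99, 3.93 and 4.25 in *rad4Δ* and at 4.06, 3.87 and 4.08 in wildtype. The double mutant was 0.72 ± 0.10 above wildtype (limma adjusted p = 0.00692), and its arrays cleared all others. *PNC1*, coding for nicotinamidase, differed by 0.49 ± 0.10 from wildtype (limma adjusted p = 0.0481, and 0.0939 without the 2 arrays in doubt).

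Against *rad23Δ*, 6 of the 28 targets rose, beside 0.571% of all probe sets, namely *HSP12*, *ALD3*, *YGP1*, *PNC1*, *MSC1* and *OM45*. Of these only *ALD3* still passed when double mutant replicate 1 or 2 or *rad23Δ* replicate 2 or 3 was left out. Omitting *rad23Δ* replicate 1 kept *ALD3* and *OM45*, and omitting double mutant replicate 3 kept none. In these omissions 7 to 45 of all probe sets passed. *HSP12*, a small heat shock protein gene, was at 11.09, 11.18 and 11.12 in *rad4Δrad23Δ*, at 8.46, 8.60 and 8.41 in *rad23Δ*, at 9.25, 10.86 and 9.01 on the arrays labelled *rad4Δ* and at 10.65, 10.69 and 9.20 on those labelled wildtype. The 2 arrays whose *RAD4* signal went against their labels were also the ones that stood apart from their strain for *HSP12*. The double mutant was 2.64 ± 0.45 above *rad23Δ* (limma adjusted p = 0.0209). Neither strain holds an array in doubt, but the 2 arrays in doubt enter the error of this comparison. The SD of *HSP12* was 0.05 in *rad4Δrad23Δ* and 0.10 in *rad23Δ*, against 1.01 in *rad4Δ* and 0.85 in wildtype. For *HSP12* the interaction of the deletions was 3.11 ± 0.63 (limma adjusted p = 0.121), and 4.18 without the 2 arrays in doubt (limma adjusted p = 5.15e-07). *YGP1*, coding for a secreted glycoprotein, was 1.14 ± 0.22 above *rad23Δ* (limma adjusted p = 0.0373) and 1.13 ± 0.22 above *rad4Δ* (limma adjusted p = 0.0371). With both arrays in doubt left out, 9 of the 28 targets rose against *rad23Δ* and 6 against *rad4Δ*, where 125 and 116 of all probe sets passed. In the double mutant against wildtype *ALD3* then rose. *HSP26*, chosen here after its value was seen, fell there by 0.53 (limma adjusted p = 0.0336). In the same fit *HSP12* and *HSP26* fell in both single mutants against wildtype. For *HSP12* the difference was -2.18 in *rad23Δ* (limma adjusted p = 5.51e-06) and -1.54 in *rad4Δ* (limma adjusted p = 0.000338), from 2 wildtype arrays.

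Beside the factors themselves, the median of the 28 targets on each array ran with *MSN4*. That median was 9.04, 8.81 and 8.84 in *rad4Δrad23Δ*, 8.53, 8.24 and 8.35 in *rad23Δ*, 8.80, 8.46 and 7.94 in *rad4Δ* and 8.63, 8.91 and 8.71 in wildtype. Over the 12 arrays r was 0.85 for *MSN4* (rho 0.86), 0.77 for *CIN5* (0.84), 0.76 for *MSN2* (0.65) and 0.44 for *XBP1* (0.45). Without the 2 arrays farthest from the middle of the target medians, r was 0.81, 0.79, 0.39 and 0.50. With strain means removed it was 0.85, 0.68, 0.62 and 0.01, so arrays within strains showed a relation for *MSN4*, *CIN5* and *MSN2*, and almost none for *XBP1*. Whether that relation comes from differences between arrays that touch many genes was not tested. Wildtype had the lowest *XBP1* mean, 3.89, beside target medians of 8.63 to 8.91. These are descriptions over arrays that share strains and a normalization, and no p is given.

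**Figure D3:**
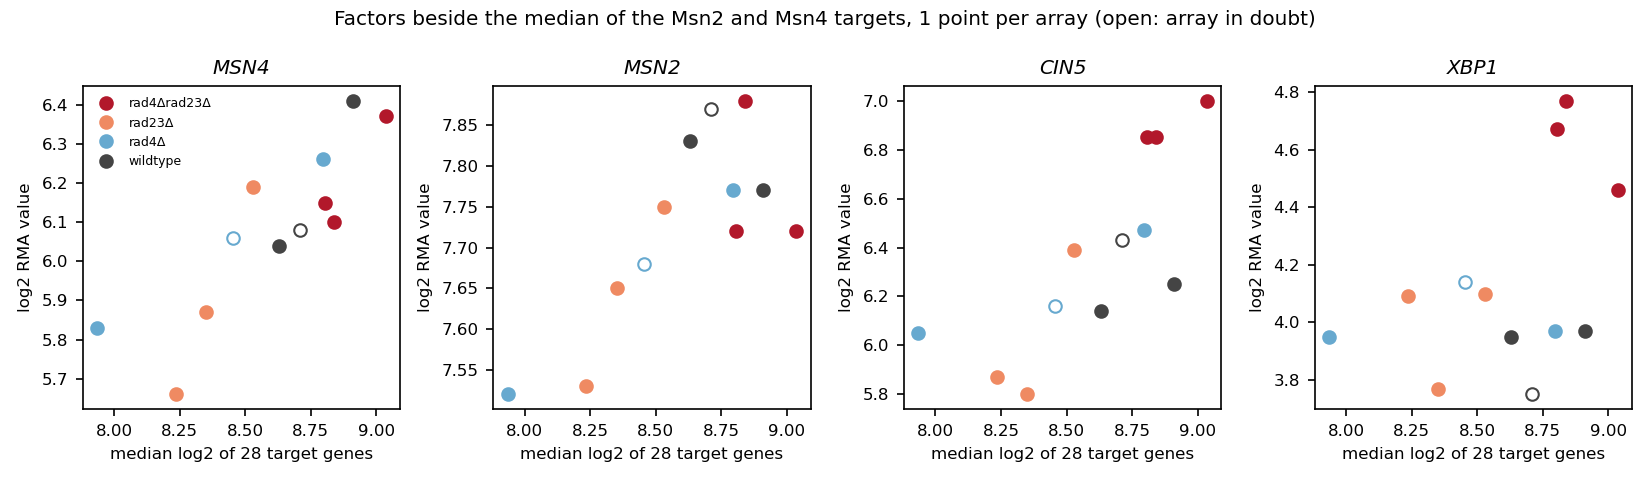
Log2 RMA value of *MSN4*, *MSN2*, *CIN5* and *XBP1* (vertical axes, each with its own range) against the median log2 value of 28 Msn2 and Msn4 target genes on the same array (horizontal axis), 1 point per array, coloured by strain, with open points for the 2 arrays in doubt. *MSN4* runs along the target median over all strains (r = 0.85), while for *XBP1* the 3 double mutant arrays stand off above the other 9.

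Among 18 Hsf1 targets, which are chaperone and cochaperone genes for the most part, all 18 differences between double mutant and wildtype were positive. Their median was 0.41, beside -0.02 over all probe sets. *HSP82* and *CUR1* passed. The median was 0.27 in *rad23Δ* and 0.16 in *rad4Δ* against wildtype, neither with a gene that passed. In the double mutant it was 0.09 against *rad23Δ*, where *MDJ1* rose, and 0.23 against *rad4Δ*, where 17 of 18 differences were positive and *HSP82* and *CUR1* rose. With both arrays in doubt left out, 73, 61 and 40 of all probe sets passed in the double mutant, *rad23Δ* and *rad4Δ* against wildtype. Of the 18 targets 4, 3 and 2 then rose. *BTN2* and *HSP42*, named after their values were seen, were among them in each of these 3 comparisons. *CUR1*, whose protein sorts misfolded proteins, was at 6.03, 5.94 and 5.88 in *rad4Δrad23Δ*, at 5.03, 5.22 and 5.12 in *rad23Δ*, at 4.90, 4.20 and 4.71 in *rad4Δ* and at 4.42, 4.53 and 5.21 in wildtype. It was 1.23 ± 0.21 above wildtype (limma adjusted p = 0.017) and 1.35 ± 0.21 above *rad4Δ* (limma adjusted p = 0.00973). The highest wildtype array, 5.21, and the lowest *rad4Δ* array, 4.20, were the 2 in doubt, so both means and the SE depend on them. *CUR1* also passed in both comparisons when they were left out. *HSP82*, a gene for the chaperone Hsp90, was 0.78 ± 0.12 above wildtype (limma adjusted p = 0.00927), and its signal is uncertain because the near-identical *HSC82*, at 0.27 ± 0.18, could share probes with it. *HSF1* itself had r = 0.48 with the median of these targets over the 12 arrays (rho 0.61), 0.26 with strain means removed and 0.17 without the 2 arrays farthest from the middle of the target medians.

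Few targets of the remaining factors passed. Over the 12 arrays r with the median of its target list was -0.23 for *YAP1* (rho 0.20), 0.09 for *SKN7* (rho -0.01), 0.61 for *ROX1* (rho 0.51) and -0.40 for *HOT1* (rho -0.34). With strain means removed it was -0.01, 0.05, 0.04 and -0.70, and without the 2 arrays farthest from the middle of the target medians 0.35, -0.41, 0.47 and -0.09. Of 15 Yap1 and Skn7 targets none rose in any comparison, the median being 0.00 in the double mutant against wildtype. The drug efflux gene *ATR1* fell against *rad23Δ*, at 6.05, 5.33 and 5.79 in *rad4Δrad23Δ* and 6.68, 6.49 and 6.30 in *rad23Δ* (-0.77 ± 0.16, limma adjusted p = 0.0485, and 0.0727 without the 2 arrays in doubt, which enter its error). The 6 hypoxic genes that Rox1 represses had a median of -0.09 in the double mutant, -0.03 in *rad23Δ* and 0.02 in *rad4Δ* against wildtype, and by limma none passed in any of the 5 comparisons with the arrays as labelled. Without the 2 arrays in doubt 1 of them passed as higher in the double mutant against wildtype. Of 7 Hot1 and osmotic stress genes, *RTC3* rose in the double mutant by 0.62 ± 0.11 against wildtype (limma adjusted p = 0.0197) and by 0.63 ± 0.11 against *rad23Δ* (limma adjusted p = 0.0209). Of 7 cyclin genes, among them *CLN1*, which Xbp1 is known to repress, none passed, with a median of 0.00 in the double mutant against wildtype.

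**Figure D4:**
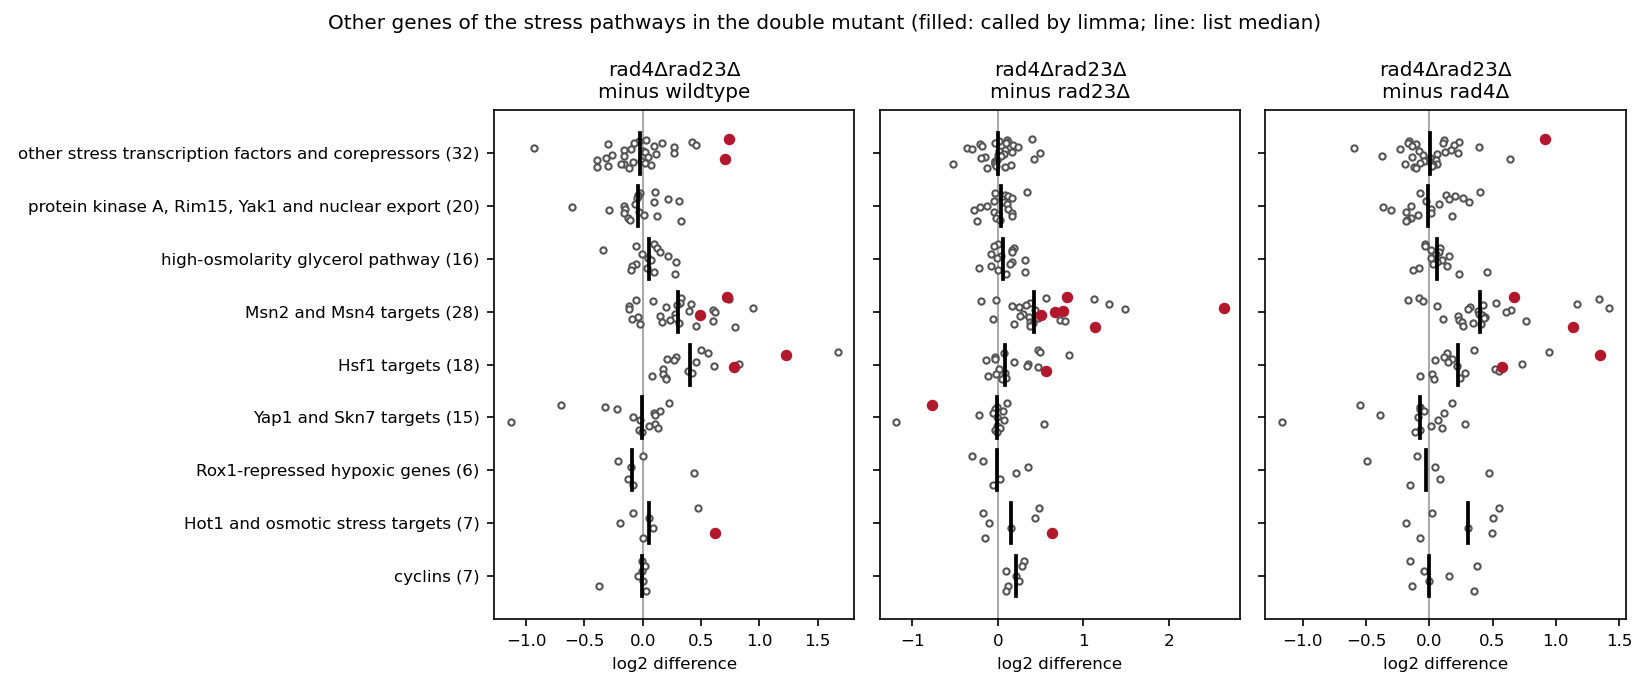
Log2 differences of the 149 other genes of the stress pathways by list (number of genes in brackets) in the double mutant against wildtype, *rad23Δ* and *rad4Δ*; each point is a gene, filled where limma's adjusted p was under 0.05, and the vertical line is the median of the list. The Msn2 and Msn4 targets lie to the right in all 3 panels (medians 0.30, 0.43 and 0.40), and the Hsf1 targets mainly against wildtype (0.41).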

How the data were processed

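Total RNA of 12 untreated log-phase cultures, 3 per strain, was hybridised to Affymetrix yeast S98 arrays. According to the submitters' notes, the authors scanned with Microarray Suite 5.0 and computed robust multichip averages with affy 1.5.8 (Bioconductor 1.5, R 2.0.1). The authors deposited log2 values rounded to 2 decimals. RMA brings arrays to one distribution and compresses differences of dim probe sets. No detection call was used here.

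Of 9335 probe sets, 60 Affymetrix controls were left out and 9275 tested. The platform annotation gave 1 gene name to 6504, several to 328 and none to 2443. For 9 listed genes with several probe sets of their own the brightest was taken. With limma 3.58.1 in R 4.3.3, 1 mean per strain was estimated from the 12 arrays together (8 residual and 4.03 prior degrees of freedom), and p-values were adjusted by Benjamini-Hochberg across the 9275 probe sets, with a threshold of 0.05. With 3 arrays a strain, which limits the precision, exact permutation tests reach no p under 0.1 and were not run. The method was tested on simulated data.

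The 10 genes and all gene lists were chosen with earlier results of these data known. All 10 are named, with listed genes that passed in at least 1 comparison, the deleted genes, and the 5 genes closest to each of 3 members. No arrays were duplicates (highest correlation between 2 arrays 0.9979). Of the listed genes 2 were not analysed here, and neither were promoter or protein sequences. Alternatives covered centring, a further quantile normalization, removal of dim probe sets, fits of the compared strains alone, a variance trend, array weights, replicate number as a block, leaving out each array, and leaving out both arrays in doubt. Figures were drawn with matplotlib 3.10.9.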

Additional observations from a re-analysis of the deposited data

How the results depend on the processing

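Of 540 recomputed differences of the 10 genes, 538 stayed within 1 SD of the value given and none of the few called ones changed sign. Many of them left out 1 of 3 arrays, which can hardly move a mean by 1 SD, so nothing is read from this count. Counts of calls moved more. In the double mutant against wildtype, 1 of the 10 genes and 60 of all probe sets passed. This became 0 and 66 without probe sets of mean under 5, 0 and 73 without both arrays in doubt, 2 and 90 with only the strains compared, and 3 and 827 with array weights. Without the dim probe sets 7 of the 10 genes and 5651 probe sets are left, *XBP1*, *ROX1* and *YAP6* not among them. Array weights raised the calls over all probe sets throughout, to 842 from 26 in *rad23Δ* against wildtype, 344 from 71 in the double mutant against *rad4Δ* and 332 from 8 in the interaction. Of the 10 genes 2 then passed in each, against 0, 1 and 0 in the fit given, so nothing is read from this rise. Against *rad23Δ*, 1 of the 10 passed instead of 2 without dim probe sets and with only the strains compared (75 and 156 of all, against 81). Against *rad4Δ*, 0 instead of 1 passed after a further quantile normalization, without dim probe sets and with only the strains compared (80, 85 and 20 of all, against 71).

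Of the other pathway genes, array weights gave 34 calls in place of 7 (double mutant against wildtype), 32 in place of 0 (*rad23Δ* against wildtype), 36 in place of 9 (against *rad23Δ*), 23 in place of 5 (against *rad4Δ*) and 18 in place of 0 (interaction). Over all probe sets array weights gave 827, 842, 924, 344 and 332 calls in the same order. The default estimate of the weights did not converge, so they were estimated gene by gene, a choice made after the data were seen. Without both arrays in doubt 6 passed in *rad23Δ* and 5 in *rad4Δ* against wildtype, 9 against *rad4Δ* and 9 in the interaction (61, 40, 116 and 110 of all probe sets). With only the strains compared 18 passed against *rad23Δ* and 2 against *rad4Δ* (156 and 20 of all). Without dim probe sets 10 passed against *rad4Δ* (85 of all).

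Leaving out 1 array in turn gave 0 to 2 calls among the 10 genes in each comparison of the double mutant, 0 to 0 in *rad23Δ* and in *rad4Δ* against wildtype and 0 to 1 in the interaction. Over all probe sets these omissions gave 17 to 95 calls in the double mutant against wildtype, 7 to 107 against *rad23Δ*, 25 to 88 against *rad4Δ*, 7 to 25 in *rad23Δ* and 0 to 8 in *rad4Δ* against wildtype, and 3 to 24 in the interaction. Among the other pathway genes it gave 1 to 9, 0 to 1, 0 to 0, 0 to 11, 2 to 7 and, in the interaction, 0 to 3, the comparisons in the order of *rad4Δrad23Δ*, *rad23Δ* and *rad4Δ* against wildtype and the double mutant against *rad23Δ* and *rad4Δ*. Whether the replicate numbers pair the arrays was not tested. Of 18 pairs of same-numbered arrays, 10 had a correlation of deviations over 0.1 (-0.37 to 0.61). Of the 12 arrays, 7 correlated best with their own number. With replicate number as a block the counts for the 10 genes were 1, 0, 0, 2 and 1, and 0 in the interaction, and for the other pathway genes 6, 0, 0, 9 and 6, and 1 in the interaction. Over all probe sets they were 64, 25, 0, 93 and 86, and 16 in the interaction. Among dim probe sets such as *XBP1*, *ROX1* and *YAP6*, signal over background limits what can be seen.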
